A study of Vitis vinifera with 6 samples.

Results

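A set of 10 grapevine genes that the study singles out by name as likely direct targets of the transcription factor NAC61 was examined, out of 34369 features on the array. They are CML101 (VIT_01s0010g02930), MKS1 (VIT_01s0011g03650), an AVR9/CF-9 rapidly elicited protein gene (VIT_01s0011g06140), ALDH2B8 (VIT_01s0026g00220), nodulin MtN21 (VIT_01s0026g00520), NIP5 (VIT_02s0025g03260), AOX1A (VIT_02s0033g01400), NIT4 (VIT_02s0109g00430), Monopteros (VIT_04s0043g00940) and AKR (VIT_05s0062g00980). The genes had been picked because their transcripts were higher on these same arrays and because NAC61 bound their promoters in a DNA affinity purification and sequencing experiment. Their difference between the groups is therefore part of how they were chosen, and it is described here without a test. Regulators of stilbene synthesis, a lipoxygenase and a dehydrin named as targets in the same way were left out. Laccases were left out too, and the study reports no laccase among its likely direct targets. The identifiers place 5 of the genes on chromosome 1, 3 on chromosome 2, and 1 each on chromosomes 4 and 5.

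The arrays measured RNA of young leaves of Vitis vinifera cv. Thompson Seedless, grown in vitro. Plants were vacuum infiltrated with Agrobacterium tumefaciens C58C1, and leaves were sampled 7 days later. The labels give the age of the plants as 6 weeks. The OX.NAC61 group received 35S:NAC61, which places the gene under a strong viral promoter active in most leaf cells, and the control group received the same bacterium with a vector holding a non-coding sequence. Both groups were thus exposed to the bacterium and the infiltration, expression was transient, and the 3 OX.NAC61 plants were those with the highest NAC61 expression of the 7 infiltrated, against 3 control plants of 5. Each group had 3 arrays, each from a different plant.

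NAC proteins are plant-specific transcription factors, many of which act in senescence, ripening and stress responses. The 10 genes cover several steps of such responses. CML101 and MKS1 belong to calcium and kinase signalling, and the study counts the AVR9/CF-9 protein among genes related to biotic stress. ALDH2B8, AKR, AOX1A and NIT4 belong to metabolism of aldehydes, nitriles and mitochondrial electrons. NIP5 and MtN21 belong to membrane transport and Monopteros to auxin-dependent transcription. In Arabidopsis, calmodulin-like proteins bind calcium and pass the signal on, MKS1 is a substrate of a mitogen-activated protein kinase of the defence response, and alternative oxidase lets mitochondrial electrons bypass part of the respiratory chain.

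The binding motifs of 3 of the genes are shown because promoter binding was part of the selection. They are the sequences listed for NAC61 peaks assigned to these genes, in the part of the peak list read here, and the strand on which each lies was not used. Capitals mark the stretch of 7 bases that all 3 hold.
CML101: TGCGTGT
AVR9/CF-9 rapidly elicited protein: gttTGCGTGT
AKR: ctTGCGTGT
Motifs of the other members are not shown here.

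All array values below are scaled log2 signals: the log2 of the processed signal of a probe minus the 75th percentile of its array, so that 0 is the upper quartile of the array and 1 unit is a doubling. Each gene had 1 probe, so levels of different genes cannot be set against each other. The 75th percentile itself ranged from 888.5 to 1613 on the control arrays and from 1772 to 2569 on the OX.NAC61 arrays, and this difference in brightness between the groups was removed by the scaling. Scan day was not balanced: OX.NAC61 replicate 1 was scanned with the 3 controls on day 1, while OX.NAC61 replicates 2 and 3 were scanned on day 2 with no control. All 10 photosynthesis markers used to check the leaf label were well above background on every array. Their mean scaled log2 level ran from 2.91 to 3.01 on the control arrays and from 1.77 to 2.21 on the OX.NAC61 arrays. Their median log2 fold change was -0.97 and limma called 9 of the 10 lower, the same 9 that had been taken from a list of genes lower on these arrays. Fewer photosynthetic cells and less of these RNAs per cell cannot be told apart in bulk leaf RNA, and the part of either in the results below was not tested.

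NAC61 (VIT_08s0007g07640) was read first, as a check of the labels. Its scaled log2 level was -2.48, -2.21 and -2.44 on control replicates 1, 2 and 3 and -1.15, -0.66 and -0.47 on OX.NAC61 replicates 1, 2 and 3. The log2 fold change was 1.62 (SE 0.21), or 3.07-fold, and high expression of this transcript was how the plants of this group had been picked.

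All 10 targets were well above background on all 6 arrays, none was saturated and none carried an outlier mark. Every OX.NAC61 array lay above every control array for all 10 genes. Over all 27052 features tested, 9.88% had this arrangement. Limma called 9 of the 10 higher (adjusted p below 0.1 and fold above 1.5), beside 3.09% of all features called higher and 3.72% called lower, and nothing is read from either count because the genes were chosen on this contrast. The 9 calls became 5 when OX.NAC61 replicate 2 was left out and 3 when OX.NAC61 replicate 3 was. They became 2 without control replicate 3 and 1 without control replicate 2. With another background correction, normexp on the recorded backgrounds, 0 of the 10 were called. The median log2 fold change was 1.52 for the 10 genes and -0.05 for all features tested. Of the 10, 8 exceeded 2-fold and 2 exceeded 4-fold, and the plot of signal by array shows them one by one.

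**Figure D1:**
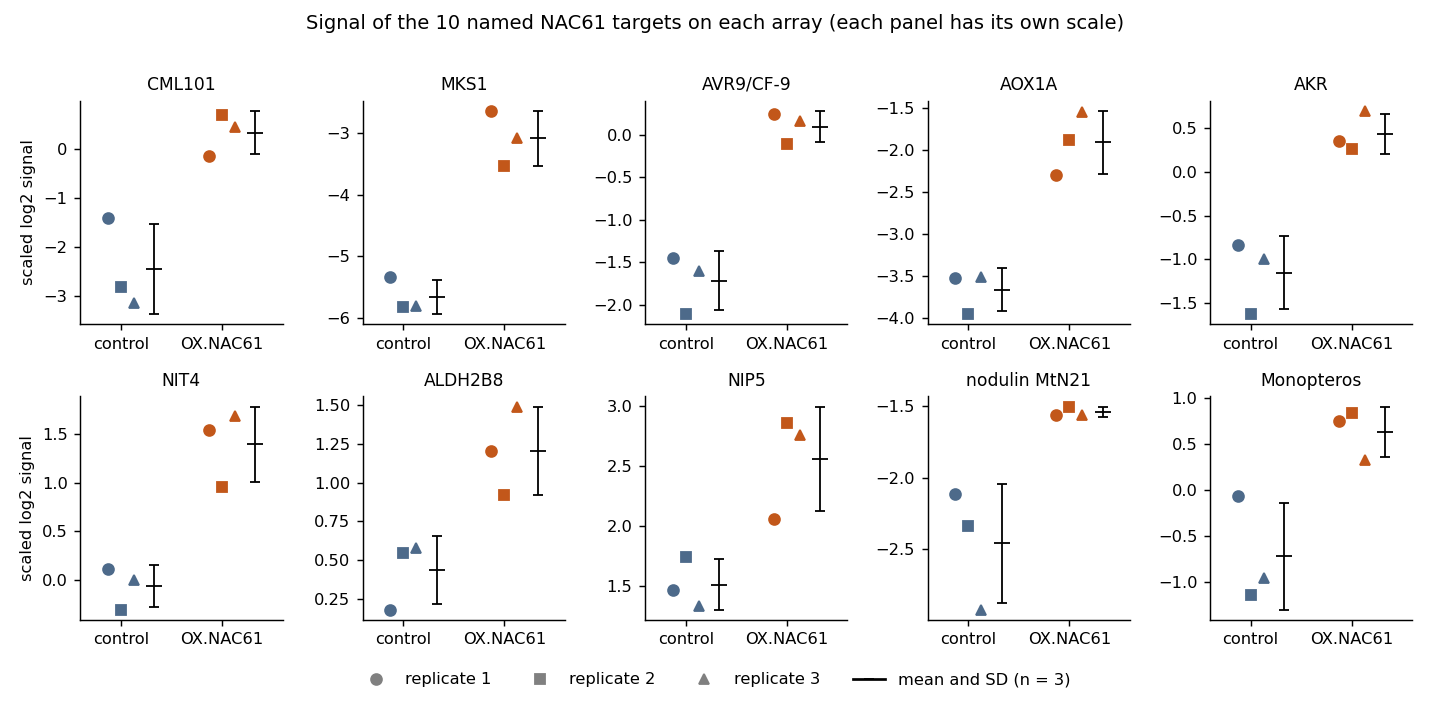
Scaled log2 signal (y axis, a separate scale in each panel) of the 10 named NAC61 targets on the 3 control and 3 OX.NAC61 arrays, with a symbol for each replicate and the mean with its SD beside each group. The groups do not overlap in any panel, and the gap between the nearest arrays is over 1 log2 unit in 5 of them.

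CML101 belongs to the calmodulin-like calcium sensors. Its scaled log2 level was -1.41, -2.81 and -3.14 on control replicates 1 to 3 and -0.16, 0.70 and 0.45 on OX.NAC61 replicates 1 to 3. Control replicate 1 stood well above the other two controls and OX.NAC61 replicate 1 below the other OX.NAC61 arrays, yet 1.25 log2 units parted them. Controls averaged -2.45 ± 0.92 (SD, n = 3) and OX.NAC61 arrays 0.33 ± 0.44 (SD, n = 3), a log2 fold change of 2.78 (SE 0.48) or 6.87-fold, the largest of the set in these scaled values. Before scaling, its processed signal ran from 101 to 607.6 in controls and from 1587 to 4159 in OX.NAC61.

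MKS1, the MAP kinase substrate, had the dimmest probe of the set. Its scaled log2 level was -5.34, -5.83 and -5.82 in the controls and -2.64, -3.53 and -3.07 in OX.NAC61. The mean was -5.66 ± 0.28 (SD, n = 3) in the controls and -3.08 ± 0.44 (SD, n = 3) in OX.NAC61. Both groups were tight against the distance between them, a log2 fold change of 2.58 (SE 0.27) or 5.98-fold. The processed signal was only 15.8 to 39.7 in the controls, against 222 to 283 in OX.NAC61, and the scanner's own error reached 18.4% of the signal on the dimmest array, while it was between 10% and 10.7% for the other 9 genes. The authors' deposited values gave 1.74-fold, and normexp with the recorded backgrounds gave a log2 fold change of 0.06. The cause of these changes in size was not tested.

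The AVR9/CF-9 rapidly elicited protein takes its name from genes induced when the fungal peptide Avr9 meets the tomato resistance gene Cf-9. It lay at -1.45, -2.11 and -1.60 in the controls and at 0.25, -0.11 and 0.16 in OX.NAC61 (scaled log2). The OX.NAC61 arrays lay within 0.35 of each other, whereas control replicate 2 was lower than the other controls. This made a log2 fold change of 1.82 (SE 0.22), or 3.53-fold.

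AOX1A is the alternative oxidase of mitochondria. It was at -3.52, -3.95 and -3.51 in the controls and at -2.30, -1.89 and -1.55 in OX.NAC61 (scaled log2). OX.NAC61 replicate 1 was the lowest of its group, 1.21 above the highest control. The log2 fold change was 1.75 (SE 0.24), or 3.36-fold, and it was 0.95 in the deposited values and 0.44 with normexp and the recorded backgrounds.

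AKR encodes an aldo/keto reductase, an enzyme that reduces aldehydes and ketones to alcohols. Its scaled log2 level was -0.83, -1.62 and -0.99 in the controls and 0.36, 0.26 and 0.70 in OX.NAC61. Control replicate 2 was the lowest, as for the AVR9/CF-9 protein and AOX1A. In the fit this was a log2 fold change of 1.59 (SE 0.25), or 3.01-fold.

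NIT4 encodes a nitrilase, which in Arabidopsis acts on beta-cyanoalanine, a product of cyanide detoxification. It was at 0.11, -0.31 and 0.00 in the controls and at 1.54, 0.95 and 1.69 in OX.NAC61. OX.NAC61 replicate 2 was the lowest of its group and still 0.84 above the highest control. Its log2 fold change was 1.46 (SE 0.24), or 2.75-fold, and this gene was among the least affected by the source of values, with 2.71-fold in the deposited table.

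ALDH2B8 encodes an aldehyde dehydrogenase, which oxidises aldehydes to carboxylic acids. It was at 0.18, 0.55 and 0.58 in the controls and at 1.21, 0.92 and 1.49 in OX.NAC61. The groups were parted by 0.34 only. The log2 fold change of 0.77 (SE 0.20), or 1.71-fold, was the smallest of the set in these scaled values, and this was the 1 gene that limma did not call over all features (adjusted p 0.107). When only features well above background on all 6 arrays were kept, all 10 genes were called, and without a filter on dim probes 6 of the 10 were.

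NIP5 is an aquaporin of the group that in Arabidopsis includes boric acid channels. It was at 1.47, 1.74 and 1.34 in the controls and at 2.06, 2.86 and 2.76 in OX.NAC61 (scaled log2). The array scanned with the controls, OX.NAC61 replicate 1, lay 0.32 above the highest control, and the day 2 arrays lay higher. The fitted log2 fold change was 1.04 (SE 0.25), or 2.06-fold.

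Nodulin MtN21 is named after a Medicago truncatula nodule transcript, and Arabidopsis proteins of the family transport amino acids. It was at -2.12, -2.34 and -2.93 in the controls and at -1.56, -1.50 and -1.56 in OX.NAC61. The OX.NAC61 arrays were nearly equal (SD 0.04, n = 3) and the spread lay in the controls (SD 0.42, n = 3). The log2 fold change was 0.92 (SE 0.23), or 1.89-fold, and it was 0.22 with normexp and the recorded backgrounds.

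Monopteros is an auxin response factor, a transcription factor that turns auxin levels into changes of gene expression and is needed for vascular and embryo patterning in Arabidopsis. It was at -0.06, -1.14 and -0.96 in the controls and at 0.74, 0.83 and 0.32 in OX.NAC61. Control replicate 1 was again the highest control, 0.38 below the lowest OX.NAC61 array. Its log2 fold change was 1.35 (SE 0.32), or 2.55-fold.

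By role, the log2 fold changes in the scaled values were 1.82 to 2.78 for CML101, MKS1 and the AVR9/CF-9 protein. They were 0.77 to 1.75 for the 4 enzymes and 0.92 to 1.04 for the 2 transport genes. This order did not hold in the deposited values, where NIP5 had 2.15-fold and NIT4 2.71-fold against 1.74-fold for MKS1. Single arrays deviated from their group in the same direction in many of the 10 genes. Control replicate 1 was the highest control for 7 of the 10 and lay a median of 0.30 above the control mean, while the median over all features tested was -0.02. Control replicate 2 was the lowest control for 6 of the 10 and lay a median of 0.27 below the mean (-0.27). In NAC61 itself the order was the other way: control replicate 1 deviated by -0.10 and control replicate 2 by 0.17. OX.NAC61 replicate 3 was the lowest of its group for 1 gene only, Monopteros, and OX.NAC61 replicate 1 was the highest for 2. The median SD within groups was 0.33 for the 10 genes and 0.25 for all features tested.

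Because scan day and group overlapped, the differences were also taken within day 1. OX.NAC61 replicate 1 exceeded the mean of the 3 controls for all 10 genes, by a median of 1.49 and by 0.55 (NIP5) to 3.02 (MKS1) on the log2 scale. The 2 arrays of day 2 exceeded the same controls by a median of 1.51. The day 1 value was the larger for 5 of the 10. The narrowest comparison, OX.NAC61 replicate 1 minus control replicate 3 on the same recorded slide and scan, was above 0 for all 10, with a median of 1.45 and a range from 0.63 to 3.17. These within-day values rest on a single OX.NAC61 array.

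**Figure D2:**
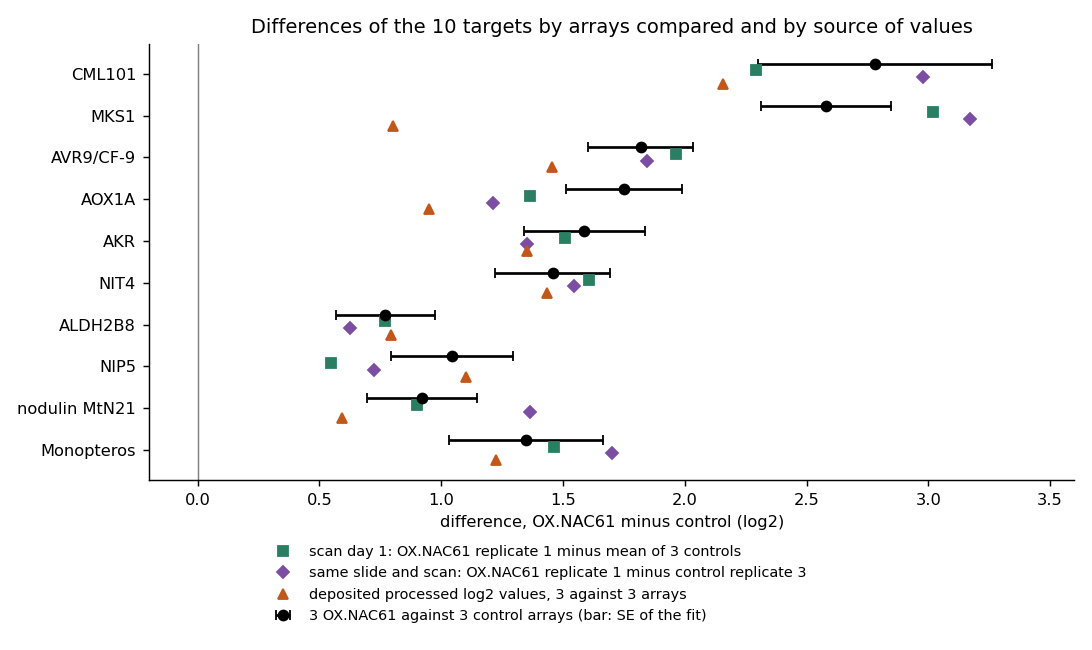
Difference in log2 signal, OX.NAC61 minus control (x axis), of each named target: over all 6 arrays with the SE of the fit, within scan day 1, within the same slide and scan, and in the deposited processed values. All points lie above 0, and MKS1 ranges most widely, from 0.80 in the deposited values to 3.17 on the shared slide.

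The set was chosen on the authors' processed values, which gave smaller differences for 8 of the 10 genes. In that table the log2 fold changes ranged from 0.59 (MtN21) to 2.16 (CML101), with a median of 1.16, and all 10 passed the thresholds of the selection, as the selection requires. MtN21 was the nearest to the limit on the inside, at 1.51-fold (adjusted p 0.0743). Just outside lay VIT_06s0004g00750, an acyl-CoA synthetase, at 1.498-fold (adjusted p 0.0989), and just inside lay VIT_05s0049g01460 at 1.5004-fold. MKS1 fell from 5.98-fold to 1.74-fold, AOX1A from 3.36-fold to 1.93-fold, and CML101 from 6.87-fold to 4.46-fold. NIP5, at 2.15-fold, and ALDH2B8, at 1.74-fold, were the 2 genes with larger values there.

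Relatives of the 10 genes were listed by annotation and tested, with the exception that 1 of the aquaporins, DELTA-TIP (VIT_09s0002g04020), is itself a named target chosen on these arrays. It was not called in the scaled values but was called in the deposited values. Of 95 relatives tested, limma called 3 higher and 7 lower at an adjusted p below 0.1, that is 10.53% against 6.81% of all features, and the median log2 fold change was -0.08. The relatives came from annotations in the study's tables and do not hold every member of a family. The lists of auxin response factors, MtN21 family, calmodulins and AVR9/CF-9 genes hold only genes whose promoters NAC61 bound in the study. Those lists thus met part of the selection of the targets. Together with the neighbours below, 18 genes were called, and this count fell to 0 when control replicate 2 was left out, to 1 when control replicate 3 was, to 3 when OX.NAC61 replicate 3 was, to 4 with the recorded slide as a block and to 0 with scan day as a block.

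None of the other alternative oxidases was called, of 4 tested (limma, and 0 at an unadjusted p below 0.05). AOX2 (VIT_12s0142g00430) had the smallest p, with a log2 fold change of -0.14 (SE 0.16, limma adjusted p 0.674). AOX1D (VIT_02s0033g01380), which lies 2 loci from AOX1A, had a value of 0.07 (SE 0.47). Its arrays ranged from -2.29 to -1.25 in the controls and from -2.61 to -0.91 in OX.NAC61, so the groups overlapped.

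Of 22 aldehyde dehydrogenases tested, limma called 1 lower and none higher, and 11 of the 22 had values above 0. VIT_01s0137g00080 had 0.76 (SE 0.24, limma adjusted p 0.155), close to the 0.77 of ALDH2B8, and neither was called. ALDH3J1 (VIT_06s0004g02060) was at 1.24, 1.61 and 1.61 in the controls and at 0.86, -0.02 and 0.53 in OX.NAC61, a log2 fold change of -1.03 (SE 0.25, limma adjusted p 0.0921). This was opposite in direction to ALDH2B8, and the difference between the 2 genes was not tested. The median of the 22 was 0.02.

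Of 22 aldo/keto reductases tested, 1 was called higher and 3 lower, with a median of -0.28. VIT_14s0030g02020 rose by 0.80 (SE 0.13, limma adjusted p 0.0377). VIT_12s0028g01100 fell by 0.92 (SE 0.16, limma adjusted p 0.0429), VIT_06s0080g00030 fell by 0.81 (SE 0.13, limma adjusted p 0.0395) and VIT_05s0049g01130 fell by 0.77 (SE 0.14, limma adjusted p 0.0529). None of the 22 reached the 1.59 of AKR in either direction, and nothing is read from this because AKR was chosen for its rise.

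Of 28 aquaporins tested, 1 was called higher and 1 lower. TIP1;3 (VIT_06s0004g04120) was at -3.92, -4.45 and -4.54 in the controls and at -2.93, -2.87 and -2.02 in OX.NAC61, a log2 fold change of 1.70 (SE 0.30, limma adjusted p 0.0474). TIP4;1 (VIT_04s0008g03550) was at 0.39, -0.08 and -0.19 in the controls and at -1.60, -1.40 and -2.86 in OX.NAC61, a log2 fold change of -1.99 (SE 0.41, limma adjusted p 0.0628). TIP1;3 had 0.68 in the deposited values and -0.0405 with normexp and the recorded backgrounds. Both belong to the tonoplast aquaporins, which carry water across the vacuolar membrane, and the median of the 28 was -0.14.

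Of 9 further MtN21 family genes tested, 1 was called lower, VIT_18s0001g03160, with a log2 fold change of -0.94 (SE 0.24, limma adjusted p 0.0972). Among 4 calmodulin genes, VIT_02s0012g02060 rose by 0.79 (SE 0.15, limma adjusted p 0.0569) and CML44 (VIT_18s0001g01630) fell by 1.88 (SE 0.39, limma adjusted p 0.0652). The former had 0.37 in the deposited values and -0.36 with normexp and the recorded backgrounds. No further AVR9/CF-9 gene was called of 3 tested, although 2 had an unadjusted p below 0.05, and all 3 had values above 0. The induced kinase 1 of that group (VIT_04s0008g02070) had the smallest p, with 0.95 (SE 0.29, limma adjusted p 0.144). No further auxin response factor was called of the 3 promoter-bound ones tested, with 1 at an unadjusted p below 0.05. This was auxin response factor 2 (VIT_07s0104g01230), at 1.65 (SE 0.62, limma adjusted p 0.208), which was well above background on 1 of the 3 control arrays.

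**Figure D3:**
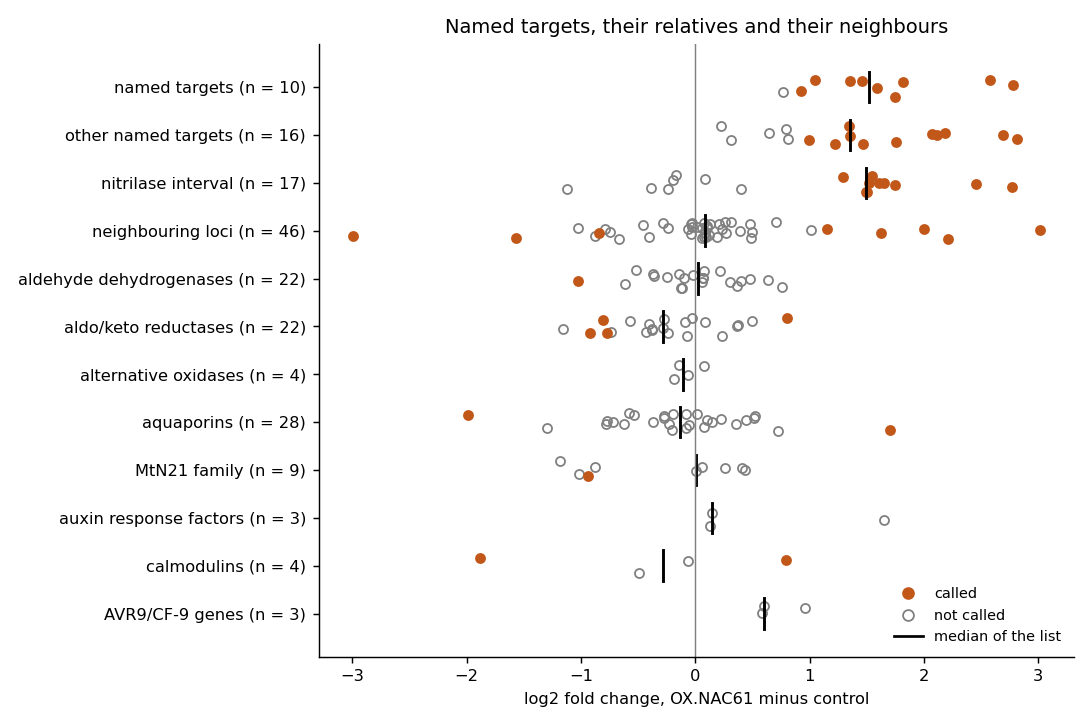
Log2 fold change, OX.NAC61 minus control (x axis), of the named targets, other named targets, loci of the nitrilase interval, neighbouring loci and the lists of relatives, with 1 point for each gene tested, filled where limma called it, and a bar at the median of each list. The median is 1.52 for the 10 targets and lies between -0.28 and 0.60 in every list of relatives. The targets were chosen on this contrast, so nothing is read from that distance.

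NIT4 was set beside the interval VIT_02s0033g00630 to VIT_02s0033g00870 on chromosome 2, which holds nitrilase genes. Every array locus between these bounds was taken, whatever its annotation. The bounds were set by loci that had already passed the thresholds in the study, so the counts in it are a description. Of 17 of its 21 loci tested, 10 were called higher (58.8%, beside 3.09% of all features), none lower and 7 were not called. The log2 fold changes ran from -1.12 to 2.77, with a median of 1.49. That median depends on where the bounds lie, so it is not read against the 1.46 of NIT4. VIT_02s0033g00840, annotated as nitrilase 4B, was at -4.37, -4.67 and -4.47 in the controls and at -1.15, -2.82 and -1.22 in OX.NAC61, a log2 fold change of 2.77 (SE 0.45) that was 1.46 in the deposited values and 0.99 with normexp and the recorded backgrounds. VIT_02s0033g00630, annotated as a nitrilase, had 2.45 (SE 0.37). VIT_02s0033g00770 and VIT_02s0033g00660, both annotated as nitrilase 4B, had 1.74 (SE 0.31) and 1.65 (SE 0.32). In these 4 loci, as in NIT4, OX.NAC61 replicate 2 was the lowest array of its group. The count of 10 was 6 without control replicate 1, 2 when OX.NAC61 replicate 3 was dropped and 0 when control replicate 2 or control replicate 3 was left out. Near-identical copies can share signal on an array, and whether these probes tell the copies apart was not tested.

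Loci beside the targets were tested to see whether their differences extended along the chromosome. Up to 3 array loci on each side gave 56, of which 46 were tested, and limma called 5 higher and 3 lower (17.4% against 6.81% of all features). The median log2 fold change was 0.08. A called neighbour stood beside 5 of the 10 targets, and for 7 of the 10 the target exceeded each of its tested neighbours. The targets were chosen for higher values on these arrays, so nothing is read from the count of 7.

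At CML101 the 2 loci that follow it were also called higher. The next locus, VIT_01s0010g02940, was at -5.37 and -6.17 on control replicates 2 and 3 and at -3.30, -3.97 and -3.41 in OX.NAC61. Its spot on control replicate 1 carried an outlier mark and was left out, and the log2 fold change from the remaining arrays was 2.21 (SE 0.33, limma adjusted p 0.044). The deposited table keeps that spot and gives -2.43 (SE 2.50) instead, and the cause of the change was not tested. The locus after it, VIT_01s0010g02950, annotated as a calcium-binding protein of the CML type, was at -1.83, -3.48 and -4.03 in the controls and at -0.66, 0.36 and 0.00 in OX.NAC61. Its log2 fold change was 3.02 (SE 0.59, limma adjusted p 0.0566), and it was 1.99 in the deposited values and 1.94 with normexp and the recorded backgrounds. Its order of arrays within the controls and within OX.NAC61 was that of CML101. Whether the probes of these genes tell their transcripts apart was not tested. The 3 loci on the other side of CML101 had values between -0.24 and 0.20, and none was called.

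Other targets had single called neighbours that rose. VIT_01s0011g03660, next to MKS1 and annotated as an IMP dehydrogenase/GMP reductase, was at 0.72, 0.38 and 0.19 in the controls and at 1.77, 2.12 and 2.27 in OX.NAC61, a log2 fold change of 1.62 (SE 0.21, limma adjusted p 0.0285). VIT_02s0033g01390, next to AOX1A and without an annotated function, rose by 2.00 (SE 0.35, limma adjusted p 0.0456), beside 1.75 for AOX1A itself. For VIT_02s0033g01390 the deposited values gave 1.003 and normexp with the recorded backgrounds gave 0.42, where it was not called. VIT_01s0026g00190, an armadillo/beta-catenin repeat protein 3 loci from ALDH2B8, rose by 1.16 (SE 0.17, limma adjusted p 0.0339), more than the 0.77 of ALDH2B8 in the scaled values, and had 0.63 with normexp and the recorded backgrounds.

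Nodulin MtN21 stood out because its called neighbours all fell. VIT_01s0026g00490, annotated as a nodulin, was at -2.88, -2.64 and -2.60 in the controls and at -5.06, -5.62 and -6.43 in OX.NAC61, a log2 fold change of -2.996 (SE 0.34, limma adjusted p 0.0252). VIT_01s0026g00500 fell by 0.85 (SE 0.16, limma adjusted p 0.0538) and VIT_01s0026g00530 fell by 1.57 (SE 0.37, limma adjusted p 0.0853). In the deposited values the 3 loci had -0.94 (VIT_01s0026g00490), -0.40 (VIT_01s0026g00500) and -0.31 (VIT_01s0026g00530), and only VIT_01s0026g00490 was called lower there. The MtN21 family genes VIT_01s0026g00540 and VIT_01s0026g00550 on the far side had 0.26 (SE 0.20) and -0.88 (SE 0.29) and were not called. The 5 neighbours called higher and the 3 called lower kept their direction on OX.NAC61 replicate 1 against the day 1 controls, at 1.13 to 2.47 and at -2.35 to -0.69.

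**Figure D4:**
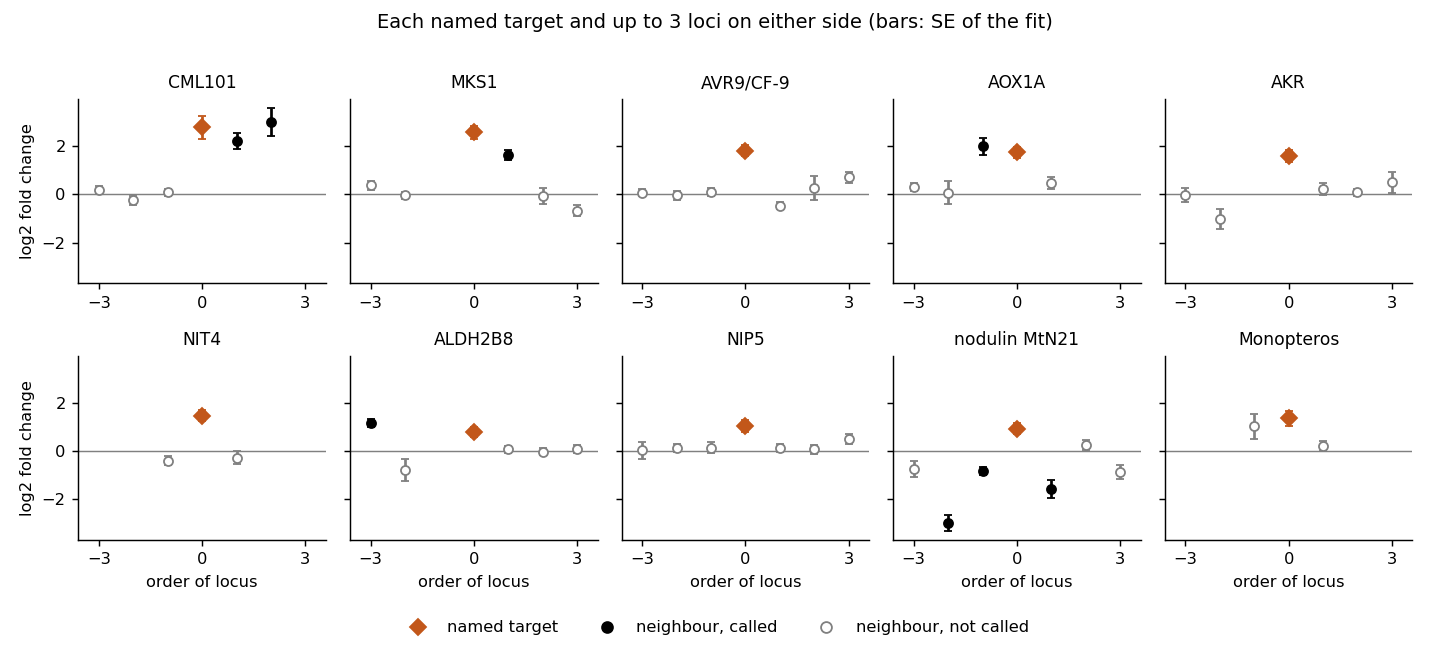
Log2 fold change with the SE of the fit (y axis) of each named target (position 0 on the x axis) and of up to 3 tested array loci on each side in identifier order. CML101 and the 2 loci after it lie above 2, whereas the loci directly beside MtN21, itself at 0.92, lie below 0. Further along, VIT_01s0026g00540 lies at 0.26.

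**Figure D5:**
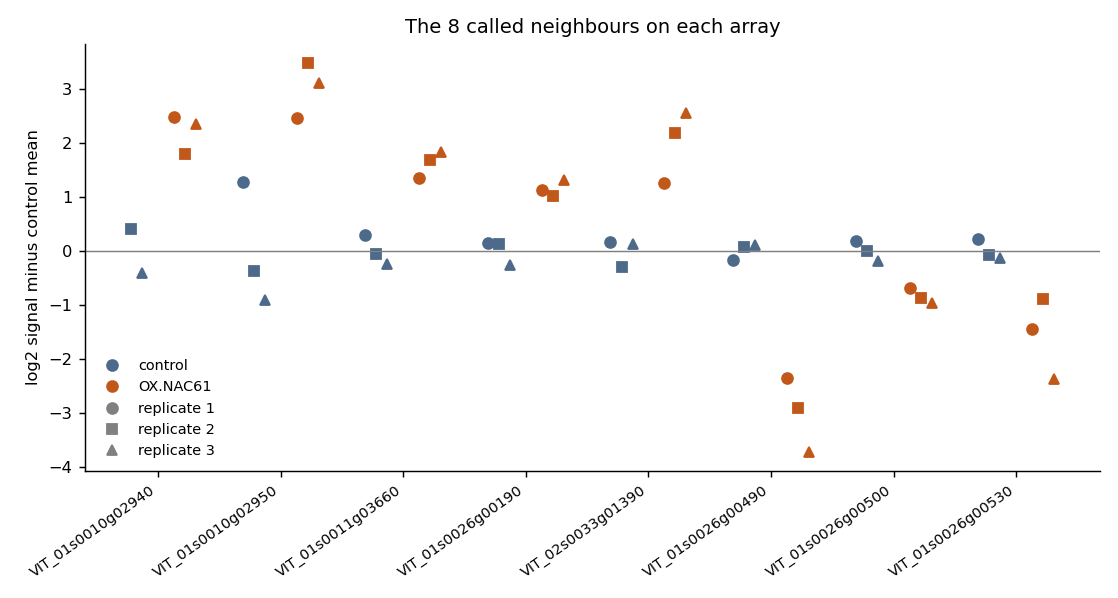
Log2 signal minus the control mean (y axis) of the 8 called neighbours on each array, with the group by colour and the replicate by symbol. VIT_01s0010g02940 has 2 control points because its spot on control replicate 1 was marked, and the groups do not overlap for any of the 8.

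The 5 remaining targets, the AVR9/CF-9 protein, NIP5, NIT4, Monopteros and AKR, had no called neighbour. Around NIP5, the 6 loci had log2 fold changes from 0.02 to 0.48. Around Monopteros, 2 of 6 loci were tested, at 1.01 (SE 0.52) and 0.19 (SE 0.21), because the others were well above background on fewer than 3 arrays.

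A further 16 genes named as targets in the same text, on other chromosomes, were set beside the 10 as a description, since they too were chosen on these arrays. All 16 had values above 0, with a median of 1.35 and a range from 0.23 (DELTA-TIP, an aquaporin) to 2.82 (ZAT11, a zinc finger protein). Limma called 11 of them higher, beside 3.09% of all features called higher, and nothing is read from this count. The count was 16 in the deposited values, on which the genes were chosen. It was 0 with normexp on the recorded backgrounds and 1 to 11 with an array left out. The range of the 10 genes, 0.77 to 2.78, lay within that of the 16.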

How the data were processed

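RNA of 3 control and 3 OX.NAC61 leaf samples was hybridised to one-colour arrays. The intensity values deposited by the authors are background-subtracted spot signals that were not normalised between arrays, and the file headers name Feature Extraction 10.5.1.1 as the software; the same files hold flags for background, saturation and outliers. A second deposited file holds the authors' processed log2 values for 26157 features.

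From the intensities, log2 processed signals were computed, the 75th percentile of each array was subtracted, spots with outlier marks were set to missing (81 features), and a feature entered the test if it was well above background on 3 or more arrays. Of 27053 such features, 27052 were tested by limma (version 3.58.1, R 4.3.3) in a linear model of group alone, moderated with eBayes, with two-sided p values adjusted by Benjamini-Hochberg. A feature was called at an adjusted p below 0.1 and a fold above 1.5, the thresholds of the study's methods. The number of arrays limits the precision. The script was tested on simulated data.

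The 10 genes and all lists were chosen with earlier results of these data known. Named genes were NAC61, the 10 targets, up to 4 called genes with the largest change of each list of relatives (aldehyde dehydrogenases, aldo/keto reductases, alternative oxidases, aquaporins, MtN21 family, auxin response factors, calmodulins, AVR9/CF-9 genes) or, with none called, the gene with the smallest p, every called neighbour, up to 4 called loci of the nitrilase interval, and the features nearest to the fold threshold in the deposited values. AOX1D, the aldehyde dehydrogenase VIT_01s0137g00080, the MtN21 loci beside the target and the values around NIP5 and Monopteros were added after their values were seen. Gene names are those of the study. The RefSeq table used here matched 0 of the 10 identifiers, so no coordinates, promoters or proteins are given. Motif sequences were copied from the listed part of the study's peak table.

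Alternatives changed the background correction, normalisation, source of values, filter, block, variance model and thresholds, or dropped 1 array at a time. For normexp the median spot signal was taken. The labels give 6 weeks as the age of the plants, and the study's methods give a younger age at infiltration, 7 days before sampling.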

Additional observations from a re-analysis of the deposited data

How the results depend on the processing

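All 10 targets kept a log2 fold change above 0 under each alternative run, and their median, 1.52 in the report, was 1.16 in the deposited values and lay between 1.34 and 1.71 when each array was left out in turn. Counts of limma calls moved more. Of all features, 1843 were called in the report. The count was 0 with normexp on the recorded backgrounds (3306 at an unadjusted p below 0.05) and 5321 with normexp after backgrounds of marked spots were replaced by the array median. It was 1157 in the deposited values, 13 with scan day as a block, 589 with the recorded slide as a block, 657 at an adjusted p below 0.05 and 1063 at a fold above 2. It lay between 71 and 3225 with an array left out. Of the 10 targets, 9 were called in the report, 0 with normexp on the recorded backgrounds (7 at an unadjusted p below 0.05), 0 with scan day as a block (8 at an unadjusted p below 0.05) and between 1 and 8 with an array left out. Relatives called higher, 3 in the report, were 0 with normexp on the recorded backgrounds, under the scan day block and under the slide block, 1 at a fold above 2, and 0 to 4 with an array left out. Relatives called lower, 7 in the report, were 0 with normexp on the recorded backgrounds and under the scan day block, 21 with replaced backgrounds, 1 with the slide as a block, 2 at an adjusted p below 0.05, 3 at a fold above 2, and 0 to 11 with an array left out. Relatives and neighbours together, 18 in the report, were 0 with normexp on the recorded backgrounds (25 at an unadjusted p below 0.05), 38 with replaced backgrounds, 0 with scan day as a block (28 at an unadjusted p below 0.05), 4 with the slide as a block, 9 at an adjusted p below 0.05, 11 at a fold above 2, and 0 to 23 with an array left out. Nitrilase interval loci called higher, 10 in the report, were 0 with normexp on the recorded backgrounds and under the scan day block, and 0 to 10 with an array left out. In the scan day fit the difference rests on OX.NAC61 replicate 1 alone, and in the slide fit on a record in which OX.NAC61 replicates 1 and 3 share slide and position. Deviations of same-numbered control and OX.NAC61 arrays correlated across features at 0.205, -0.044 and 0.212, so a number was not taken as a pair. With the replicate number as a block, 1020 features, 5 of the 10 targets, 1 relative higher, 4 lower and 10 relatives and neighbours were called. Direction turned in 3 cases: TIP1;3 (VIT_06s0004g04120, -0.0405) and VIT_02s0012g02060 (-0.36) with normexp on the recorded backgrounds, and VIT_01s0010g02940 (-2.43) in the deposited values, which keep the marked spot. The cause of these and of the other changes was not tested. For MKS1 the median signal over background was 1.85 on its lowest array, and whether this bears on its changes was not tested.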
